A study of Saccharomyces cerevisiae with 3 samples.

Results

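The AAD genes of the budding yeast Saccharomyces cerevisiae encode putative aryl-alcohol dehydrogenases, enzymes that would interconvert aromatic alcohols and aldehydes. The 6 genes AAD3, AAD4, AAD6, AAD10, AAD14 and AAD15 were found by symbol in the probe annotation of the array, 1 spot each, among 5203 named genes in all. They were measured on 3 two-colour arrays, each setting a culture of strain S288C exposed to 2-aminobenzimidazole at 5 mM for 2 h beside a culture grown for the same time without treatment. Both cultures grew exponentially in YPD, a rich glucose medium, at 25 °C, and the compound came from a 500 mM stock. The series describes the arrays as independent biological samples. It holds a single strain, dose and time.

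The proteins of this family belong to the aldo-keto reductases and were named for their similarity to the aryl-alcohol dehydrogenase of the lignin-degrading fungus Phanerochaete chrysosporium. Their physiological substrates in yeast are not settled. AAD4 and AAD6 are known to be induced by oxidants through Yap1, the transcription factor of the yeast oxidative stress response. The members are much alike in sequence, so a spot for one may also take up labelled RNA of another, and how far this happened was not tested.

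Values are log2 ratios of treated over untreated cells as deposited. This direction is likely from the channel labels, with Cy5 on treated and Cy3 on untreated RNA, but is not written in the table, and the log base was likewise taken to be 2. All 3 arrays had the same dye orientation, so treatment and dye cannot be told apart. Arrays 1, 2 and 3 held values for 3062, 5044 and 5158 named genes, and no brightness is given. The title of array 1, the one with fewest values, carries a letter H whose meaning is not stated. The 3039 genes measured on all 3 arrays were tested against 0 with limma, a linear model that shares the estimate of the spread across genes. Calls were made at a Benjamini-Hochberg adjusted p under 0.05. At that threshold 8.36% of the tested genes were higher in treated cells and 9.64% were lower. Without array 1 or without array 3, 0 of the 3039 genes passed in limma, and 635 and 715 had an unadjusted p under 0.05. Without array 2, 373 genes were higher and 366 lower.

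The AAD genes lay on the higher side in treated cells, modestly and with 0 calls in the test over 3 arrays. On array 1 all 4 members with a value were above 0, on array 2 all 6, and on array 3 5 of 6. The other genes were above 0 in 47.2%, 51.7% and 47.8% of cases on arrays 1, 2 and 3. The medians of the members were 0.71, 0.94 and 0.38 on arrays 1, 2 and 3, against medians of -0.06, 0.03 and -0.04 for the other genes. Centring each array on its own median left the same numbers of members above 0.

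**Figure D1:**
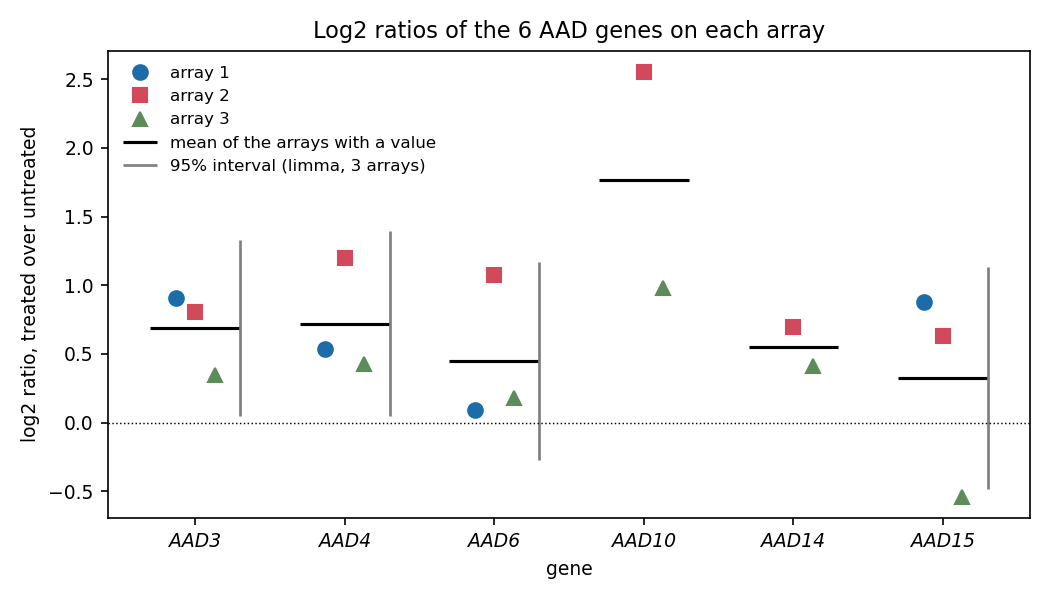
The log2 ratio of treated over untreated cells (vertical axis) is plotted for each AAD gene (horizontal axis), with 1 point per array, a horizontal bar at the mean and, for the 4 genes with 3 values, the 95% interval of the mean from limma. AAD10 on array 2 is the highest point at 2.55, AAD15 on array 3 is the lowest at -0.54 and the only one under 0, and AAD10 and AAD14 have no value on array 1.

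Of the 6 members 4 had a value on all arrays, and 0 of these 4 passed at an adjusted p under 0.05 (limma). At an unadjusted p under 0.05 the test took 2 of the 4, both higher, against 16.3% of all tested genes that were higher at that level. AAD3, AAD4 and AAD6 were above 0 on every array, as were 25.8% of the tested genes. On arrays 2 and 3 together 5 of the 6 members were above 0 on both, against 32.9% of the genes measured there. The share was 68% for neighbours of the members, 64.3% for aldehyde reductases outside the family and 54.7% for other genes near chromosome ends. For Yap1 targets it was 40% and for Ehrlich pathway genes 11.8%, all described below. ADH7 and SOR1 count both as aldehyde reductases and as neighbours. AAD10 and AAD14 lacked a value on array 1. That was the case for 33.3% of the members and for 39.5% of the 5021 genes measured on arrays 2 and 3.

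AAD4 (YDL243C) and AAD6 (YFL056C) are the members linked to oxidative stress. AAD4 had log2 ratios of 0.54, 1.20 and 0.43 on arrays 1, 2 and 3, a mean of 0.72 ± 0.42 (SD, n = 3) or 1.65-fold. The adjusted p was 0.12 (limma), with an interval of the mean from 0.05 to 1.39. All values lay above 0 and array 2 stood highest, at the 92.8th percentile of that array's genes. The other two arrays placed it at the 74th and 70.6th percentiles.

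AAD6 had log2 ratios of 0.09, 1.08 and 0.18, a mean of 0.45 ± 0.55 (SD, n = 3) or 1.36-fold, with an adjusted p of 0.334 (limma) and an interval from -0.27 to 1.17. It was near 0 on arrays 1 and 3 and 2.11-fold up on array 2 alone. Without array 2 its mean was 0.13, with an adjusted p of 0.78 (limma), and that of AAD4 was 0.48, with an adjusted p of 0.278. The RefSeq table lists AAD6 in strain S288C as a pseudogene and gives the neighbouring reading frame YFL057C as an alias of it.

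AAD3 (YCR107W) was the most even of the fully measured members. Its log2 ratios were 0.91, 0.81 and 0.35, a mean of 0.69 ± 0.30 (SD, n = 3) or 1.61-fold, with an adjusted p of 0.12 (limma) and an interval from 0.04 to 1.33. Its range across arrays, 0.56, was narrower than the median range of 0.89 over the tested genes. By contrast with AAD4 and AAD6, its highest value was on array 1.

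AAD15 (YOL165C) is the shortest member, with a coding length of 432 bases in the RefSeq table. The other members listed there as protein-coding have lengths of 867 bases (AAD10), 990 bases (AAD4), 1092 bases (AAD3) and 1131 bases (AAD14). It had log2 ratios of 0.88, 0.63 and -0.54, a mean of 0.32 ± 0.76 (SD, n = 3), and an adjusted p of 0.536 (limma), with an interval from -0.48 to 1.13. It was raised on arrays 1 and 2 and lower in treated cells on array 3, a range of 1.42 that exceeded that of 78.2% of tested genes. Its mean was 0.05 without array 1, 0.17 without array 2 and 0.75 without array 3, so single arrays decided its size.

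AAD10 (YJR155W) had the highest ratios of the family. It had 2.55 on array 2 and 0.98 on array 3, a mean of 1.77 ± 1.11 (SD, n = 2), or 5.87-fold and 1.98-fold on the separate arrays. On array 2 this lay at the 99.3rd percentile of all genes and on array 3 at the 86.4th. When the test also took genes that lacked a value on 1 array (5043 genes), AAD10 passed with an adjusted p of 0.0484 (limma), the only one of the 6 members to do so. In that fit 5.39% of genes were higher and 5.83% lower. The call stood close to the threshold. With arrays 2 and 3 alone for every gene it had an adjusted p of 0.153 (limma), where 0 of 5021 genes passed and 1004 had an unadjusted p under 0.05. With array 2 left out, a single value of 0.98 remained and no test was possible.

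AAD14 (YNL331C) had 0.69 on array 2 and 0.41 on array 3, a mean of 0.55 ± 0.20 (SD, n = 2) or 1.47-fold. The values were close to each other and both above 0. In the fit with at least 2 arrays its adjusted p was 0.338 (limma), with an interval from -0.26 to 1.37.

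**Figure D2:**
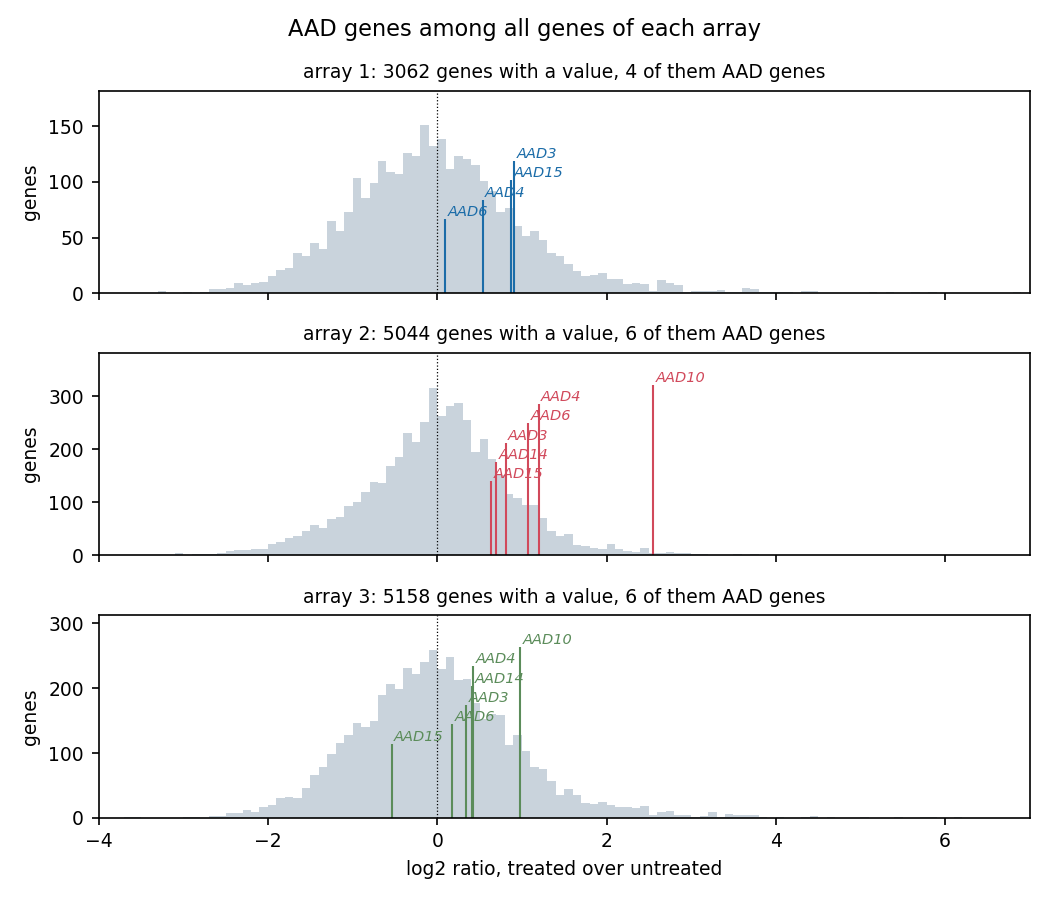
Histograms give the number of genes (vertical axis) by log2 ratio of treated over untreated cells (horizontal axis) on each of the 3 arrays, and labelled lines mark the AAD genes with a value there. The members sit right of the centre on each array except AAD15 on array 3, and only AAD10 on array 2 reaches the far right tail, at 2.55.

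All 6 members could be set side by side on arrays 2 and 3. Their means over these arrays fell in the order AAD10 at 1.77, AAD4 at 0.81, AAD6 at 0.63, AAD3 at 0.58, AAD14 at 0.55 and AAD15 at 0.05. The median of the members was 0.60, against 0.01 for the other 5015 genes. AAD10 stood at the 97.7th percentile of these means, the next 4 members between the 78.5th and the 87th, and AAD15 at the 52.7th. Both arrays placed AAD10 above each of the other 5 members, and both placed AAD15 below each of them.

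Differences between members were taken on the same array for all 15 pairs. The gap of AAD10 over AAD4, its neighbour in that order, was 0.96 ± 0.57 (SD, n = 2; exact sign-flip permutation test, two-sided, p = 0.5, adjusted p = 0.75), and that over AAD15 was 1.72 ± 0.28 (SD, n = 2; exact p = 0.5, adjusted p = 0.75). AAD4 exceeded AAD6 on all 3 arrays, by 0.27 ± 0.16 (SD, n = 3; exact p = 0.25, adjusted p = 0.75). AAD3 exceeded AAD15 on all 3 arrays too, by 0.36 ± 0.46 (SD, n = 3; exact p = 0.25, adjusted p = 0.75). AAD3 and AAD14 differed by 0.02 ± 0.13 (SD, n = 2), less than the spread between arrays, as did AAD6 and AAD14, by 0.07 ± 0.44 (SD, n = 2), and AAD3 and AAD4, by -0.03 ± 0.38 (SD, n = 3). These tests cannot go below 0.25 with 3 arrays or 0.5 with 2, so the order of the members could not pass a threshold.

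Array 2 gave higher values than array 3 for all 6 members, by 0.28 for AAD14, 0.46 for AAD3, 0.77 for AAD4, 0.90 for AAD6, 1.17 for AAD15 and 1.57 for AAD10. The median of this difference over 5021 genes was 0.03. Of all these genes, 95.6% had a smaller difference than AAD10 and 61.6% a smaller one than AAD14. The medians of the Yap1 targets, aldehyde reductases, Ehrlich pathway genes and neighbours described below were also each highest on array 2. The part of array 2 in the family's values was not tested.

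Targets of Yap1 were taken as a list, since AAD4 and AAD6 answer to that factor. Of 28 listed genes 25 were on the array and 19 were tested. GTT1, a glutathione transferase, was higher at 1.69 ± 0.40 (SD, n = 3; adjusted p = 0.0159, limma), and TRX2, a cytoplasmic thioredoxin, at 1.01 ± 0.38 (SD, n = 3; adjusted p = 0.0482, limma). The 2 genes are 10.5% of those tested, near the 8.36% of all tested genes that were higher. The other 17 did not pass, and 0 were lower (1 at an unadjusted p under 0.05, limma). TRX2 did not pass with scaled arrays (adjusted p = 0.0565) or in the fit that allows 1 missing value (0.0566). In that fit ECM4 and GTO3, both glutathione transferases of the omega class without a value on array 1, passed beside GTT1 at 2.03 and 1.67 (adjusted p = 0.0221 and 0.0274, limma), and were named after their values were seen. That fit called 3 of 25 list genes higher, beside 5.39% of all its genes. The calls of ECM4 and GTO3 rest on arrays 2 and 3, and with these arrays alone 0 of 5021 genes passed (limma). Without array 2 TRX2 was at 0.83 with an adjusted p of 0.0873 (limma), and GTT1 had adjusted p of 0.168 and 0.117 without array 1 and without array 3. Over the 19 tested genes the list had a median of 0.41, against -0.04 for all tested genes. The list's median moved to 0.14 with array 2 left out and to 0.19 with array 3 left out. The array medians were 0.09, 0.67 and 0.22, highest on array 2 like AAD4 and AAD6. Array 2 also gave the highest median of the aldehyde reductases, Ehrlich pathway genes and neighbours below, so this is not particular to Yap1 targets. The AAD4 values lay above the list's median on each array, whereas AAD6 on array 1 was at 0.09, like the list.

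Among aldehyde reductases outside the family, which use NADPH or NADH to reduce aldehydes and related carbonyls, 4 of 12 tested genes (33.3%) were higher and 0 lower (0 lower also at an unadjusted p under 0.05, limma), beside 8.36% and 9.64% of all tested genes. BDH2, a putative butanediol dehydrogenase, had 3.34, 2.84 and 2.97 on arrays 1, 2 and 3 (adjusted p = 0.00733, limma). YDL124W, an aldo-keto reductase of alpha-keto amides, had 2.24, 2.22 and 1.07 (adjusted p = 0.017), and GRE3, an aldose reductase, had 1.59, 2.44 and 1.16 (adjusted p = 0.0188). Without array 1 and without array 3, BDH2 had adjusted p of 0.168 and 0.117 (limma). These 3 genes stood higher than every tested AAD gene on each array. The fourth, GCY1, a glycerol dehydrogenase of the aldo-keto reductases that was named after its value was seen, had a mean of 1.39 and lost its call without array 2, with 0.99 and an adjusted p of 0.0548 (limma). The list median was 0.73, against 0.57 for the 4 tested AAD genes and -0.04 for all tested genes. Its array medians were 0.85, 1.49 and 0.28 on arrays 1, 2 and 3.

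The Ehrlich pathway turns aromatic and branched amino acids into fusel alcohols, with aryl alcohols among its end products. Of 14 tested genes, ADH5, an alcohol dehydrogenase, was higher at 1.99 ± 1.46 (SD, n = 3; adjusted p = 0.0382, limma) and PDC5, a minor pyruvate decarboxylase, was lower at -1.35 ± 0.66 (SD, n = 3; adjusted p = 0.033, limma). The other 12 did not pass. ADH5 had 3.68 on array 1 and 1.16 and 1.13 on arrays 2 and 3. These are 7.14% of the list in each direction, beside 8.36% and 9.64% of all tested genes. The list median was -0.21, with array medians of -0.57, -0.10 and -0.18, and was -0.02 without array 1 and -0.45 without array 2. Without array 2, 3 genes of the list were higher and 2 lower, beside 373 higher and 366 lower among all 3039 tested genes. Without array 1 or array 3 none of the list passed, with adjusted p of 0.184 and 0.139 for ADH5 and 0.222 and 0.167 for PDC5 (limma).

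**Figure D3:**
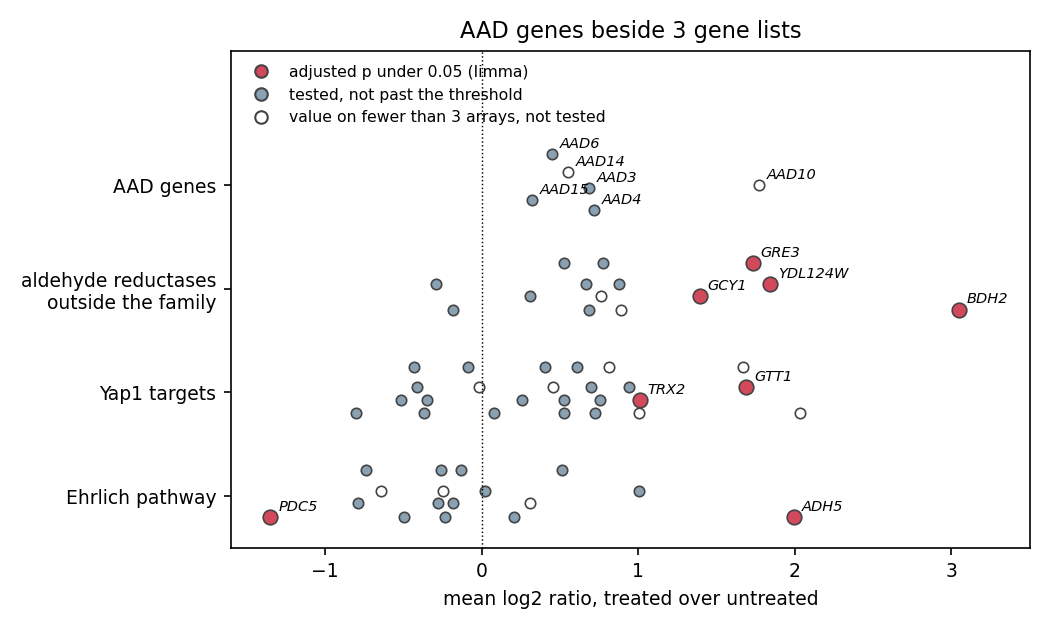
Each point is a gene at its mean log2 ratio of treated over untreated cells (horizontal axis), in rows for the AAD genes and the 3 lists, filled by whether it passed an adjusted p under 0.05 in limma, and shifted vertically only for legibility. The AAD genes lie between 0.32 and 1.77, and BDH2 lies furthest right at 3.05.

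All members lie near chromosome ends. By the RefSeq annotation, 1 protein-coding gene separates AAD3 and likewise AAD15 from the nearer end, 5 separate AAD4 and AAD10, 6 separate AAD14 and 10 separate AAD6. The 3 nearest coding genes on each side gave 32 neighbours in all, of which 26 were on the array and 10 had a value on every array. Of these 10, 2 were higher and 0 lower (0 lower also at an unadjusted p under 0.05, limma), beside 8.36% and 9.64% of all tested genes. Their median was 0.19, and 0.40 without array 1 and 0.33 without array 2. Over the 25 neighbours with a value on arrays 2 and 3, the median of the 2-array means was 0.57, and 17 (68%) were above 0 on both arrays and 0 below 0 on both, beside 32.9% of all genes above 0 on both. Of 236 genes near chromosome ends, described under other observations, 129 (54.7%) were above 0 on both and 35 below 0 on both.

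For 4 of the 6 members the adjacent gene belongs to the THI5 family, near-identical genes for the pyrimidine precursor of thiamine. THI11, beside AAD10, was higher, with 1.19, 1.36 and 1.31 on arrays 1, 2 and 3 (adjusted p = 0.0213, limma, and 0.172 and 0.133 without array 1 and without array 3). The other 3 had no value on array 1. THI12, beside AAD14, had 1.53 and 2.14 on arrays 2 and 3 and passed in the fit that allows 1 missing value (adjusted p = 0.0246, limma). THI13, beside AAD4, had 1.56 and 1.13, and THI5, beside AAD6, had 0.79 and 0.25, and neither passed in that fit. The call of THI12 rests on arrays 2 and 3, and with these arrays alone 0 of 5021 genes passed (limma). All 9 values of the 4 THI genes were above 0. The near-identity of the 4 genes means that their spots may report a shared signal. THI12 exceeded its neighbour AAD14 on both arrays, whereas AAD10 on array 2 exceeded THI11 and on array 3 did not.

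The next genes out from the THI genes had lower means than THI11, THI12 and THI13. SNZ3, a vitamin B6 synthesis gene beyond THI5, had -0.28, 0.60 and 0.55, and SNZ2 beyond THI12 had -0.19, 0.99 and -0.73. The hexose transporter genes HXT15 and HXT16, beyond the THI genes at AAD4 and AAD10, were above 0 on all arrays, with 1.20, 0.51 and 0.46 for HXT15 and 0.29, 0.39 and 0.82 for HXT16 (adjusted p = 0.119 and 0.231, limma). Beyond them the sorbitol dehydrogenase genes had 1.36 and 0.46 (SOR2) and 1.08 and 0.70 (SOR1) on arrays 2 and 3. AQY3, an aquaglyceroporin gene near AAD6, was the other neighbour past the threshold, at 1.58, 1.12 and 2.13 (adjusted p = 0.0184, limma, and 0.171 and 0.131 without array 1 and without array 3). AGP3, an amino acid permease gene between AQY3 and AAD6, had -0.50 and 0.57 on arrays 2 and 3. Beside AAD14 on its other side, RPD3, a histone deacetylase gene, had -1.79, 0.21 and 0.41. Beside AAD3, RDS1, a gene for a zinc cluster transcription factor, had 0.25, -0.16 and 0.19, and ADH7, for an alcohol dehydrogenase of cinnamyl aldehydes, had 0.72 and 0.81 on arrays 2 and 3. Near AAD15, BDS1, a sulfatase gene, had 0.73 and 0.80 and YOL163W had 0.88 and 0.98 on arrays 2 and 3. On the side of AAD10 away from THI11, YJR154W had 0.49 and 1.70 and PGU1, a polygalacturonase gene, had 0.73 and 1.11. These 4 genes were above 0 on both arrays. The other neighbours measured on these arrays, YDL241W, LRG1, DAL5, SNO2, PEX6 and MDJ2, had means between -0.60 and 0.30, and DAK2 had 0.59 on array 3 only.

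**Figure D4:**
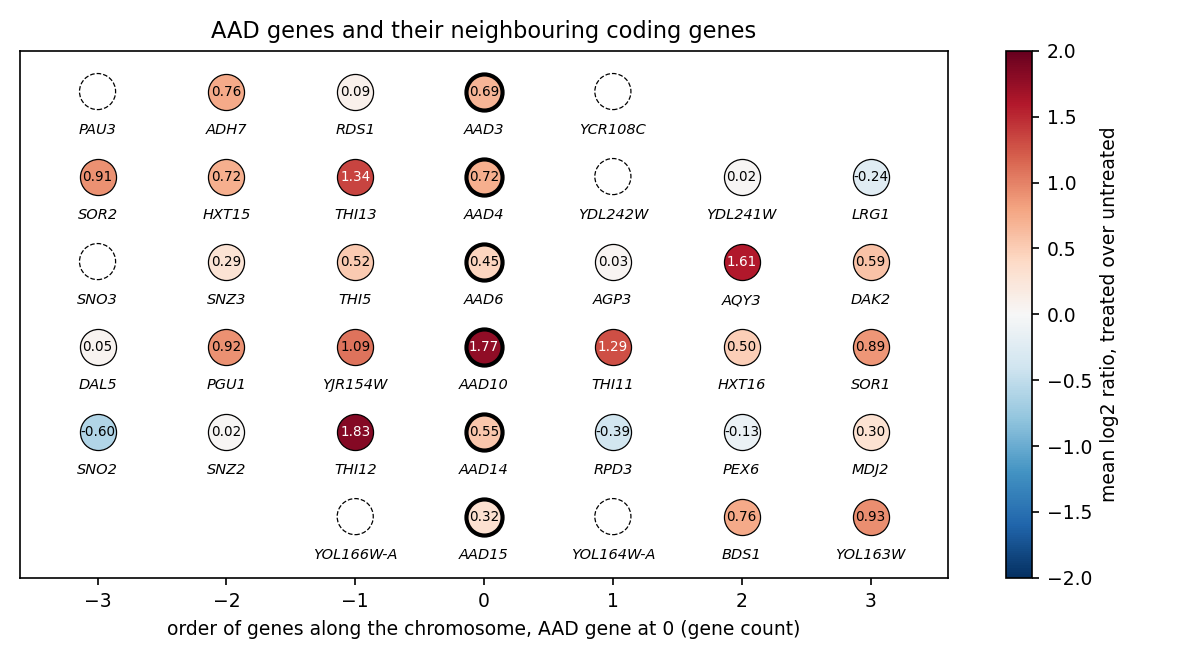
Circles show the AAD genes (thick outlines, position 0) and the coding genes next to them in their order along the chromosome (horizontal axis, in genes), with the mean log2 ratio of treated over untreated cells as number and colour and dashed circles for genes without a value here. Strongly coloured circles stand at AAD10, at THI11, THI12 and THI13 and at AQY3, and members at the ends have fewer neighbours.

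The genes most like each fully measured member were found by Euclidean distance over its 3 log2 ratios. Nearest to AAD3 were CST6, AHC2, VPS73, LAF1 and PEP12, at distances of 0.08 to 0.20. Nearest to AAD4 were MMT2, SOD1, MOG1, GRX1 and RIE1, at 0.09 to 0.19. MMT2, the nearest, had 0.53, 1.29 and 0.42 on arrays 1, 2 and 3, MOG1 had 0.43, 1.10 and 0.41, and RIE1 had 0.57, 1.07 and 0.57. SOD1 had 0.52, 1.27 and 0.48, and GRX1 had 0.53, 1.20 and 0.27, beside 0.54, 1.20 and 0.43 for AAD4. Nearest to AAD6 were LPL1, CAB5, GLO1, YMD8 and YOR292C, at 0.11 to 0.17, and GLO1, which detoxifies methylglyoxal, had 0.11, 1.21 and 0.16. Nearest to AAD15 were APS1, YJU3, HMF1, RVS161 and YDL129W, at 0.16 to 0.33.

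No member was among the 5 nearest genes of another. The closest pair was AAD4 and AAD6, at 0.53, AAD6 ranking 72 among the genes nearest to AAD4. AAD3 and AAD4 were nearly as close, at 0.54, AAD3 ranking 83 among the genes nearest to AAD4. AAD15 was farthest from AAD4, at 1.17. With 3 arrays such likeness describes these arrays only, and many genes lie close together in the middle of the distribution.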

How the data were processed

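The deposited table gives 1 log2 ratio per spot and array, for 6272 spots. Per the labels, the authors used spots with flag value 0 for a LOWESS normalisation, which takes out dependence of a ratio on spot brightness. The scanner, image software, array type and background correction are unstated: not given in the sources used here. Log base and direction are not written in the table, and base 2 and treated over untreated were assumed. Spots were named through the platform annotation and Entrez identifiers (5308 spots with 1 symbol, 964 with none, 5304 found in RefSeq assembly R64), and a gene's spots were averaged. Array medians over genes were -0.06, 0.03 and -0.04. Each gene was tested with limma 3.58.1 in R 4.3.3 (intercept only, eBayes with 5.31 prior and 2 residual degrees of freedom, two-sided, Benjamini-Hochberg over 3039 genes), after the procedure was tested on simulated data. The number of arrays limits the precision. The members and lists were chosen with earlier results of these data known. Named were all members, up to 3 highest and 3 lowest passing genes of a list, neighbours with a value, and the 5 nearest genes of each fully measured member. GCY1, ECM4, GTO3 and GSH1 were exceptions. Alternatives were centring, scaling, robust variances, array weights, other log base, spot medians, missing values allowed, a 1.5-fold test and leaving out arrays.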

Additional observations from a re-analysis of the deposited data

How the results depend on the processing

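The 4 members with 3 values stayed above 0 on average and short of the threshold under each alternative to the test against 0, with adjusted p (limma) of 0.0776 to 0.418 for AAD3, 0.111 to 0.312 for AAD4, 0.3 to 0.781 for AAD6 and 0.254 to 0.961 for AAD15. AAD3 came closest, with array weights. AAD10 kept its call in the fit with at least 2 arrays when centring, scaling or a robust variance, alternatives chosen after seeing the data, were added (adjusted p = 0.0342, 0.0495 and 0.0493, limma), but not with arrays 2 and 3 alone (0.153). A natural log would put AAD14 at 0.80 on the log2 scale and move all values away from 0 by the same factor. Leaving out 1 array gave 0 to 373 genes higher and 0 to 366 lower, 0 to 3 Yap1 targets higher, 0 to 3 aldehyde reductases higher, 0 to 3 Ehrlich genes higher and 0 to 2 lower, and 0 to 2 neighbours higher. A test against a 1.5-fold change left 29 genes higher and 16 lower, 0 of the 4 members and, of the 10 list genes and neighbours called from 3 arrays, only BDH2 (adjusted p = 0.0207, limma). Scaling left 1 Yap1 target higher, and array weights gave 1 Yap1 target and 2 Ehrlich genes lower. The cause of these changes was not tested. Each array already holds both cultures as 1 ratio, so the test of these ratios against 0 is a paired comparison. Without intensities, whether a spot was near background is unknown.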

Other observations

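Genes near chromosome ends other than the AAD genes, taken as the 10 outermost protein-coding genes of each end in the RefSeq table after the AAD values were seen, also lay on the higher side. Of the 143 of them that were tested, 21 (14.7%) were higher in treated cells and 3 (2.1%) lower at an adjusted p under 0.05 (limma), against 8.36% and 9.64% of all tested genes. Their median log2 ratio was 0.27, with array medians of 0.19, 0.28 and 0.27, against -0.04 for all tested genes. The mean was above 0 for 70.6% of them and for 47.7% of all tested genes. Some of the AAD neighbours are among these genes, and several families at chromosome ends hold near-identical copies that share signal on an array. Without array 1 or array 3 none of these calls stood, since 0 of the 3039 genes passed (635 and 715 at an unadjusted p under 0.05). The difference was not tested. The 4 tested AAD genes, with means of 0.32 to 0.72, lay above the median of these genes.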
